A study of Homo sapiens with 30 samples.

Results

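SUM190 is a human inflammatory breast cancer cell line that carries an amplified ERBB2 gene. Parental SUM190 cells given 1 µM doxorubicin were set against parental cells given 65 nM doxorubicin. This used 4 of the series' 30 libraries, 2 per dose. Tested were 12743 of the 20114 genes in the table, those with at least 1 CPM in 2 or more libraries. CPM is the reads in a gene scaled to the total of the library and by a factor for each library (TMM). Drug was added 24 h after seeding, and polyadenylated RNA was taken after 72 h of exposure. Parental cells in DMSO, the vehicle of every drug treatment in the study, gave the level without drug (2 libraries). Beside these stood parental cells in 10 nM against 2.5 nM paclitaxel, a microtubule drug, and a doxorubicin-resistant SUM190 line in 1 µM against 350 nM doxorubicin, each with 2 libraries per dose. The labels give 1 doxorubicin-resistant line and no number of clones, and nothing in them tells whether the 2 libraries of a group are separate cultures. The p-values therefore rest on the spread among libraries alone, and that spread may be technical.

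Doxorubicin is an anthracycline that slips between DNA bases, traps topoisomerase II on cut DNA and displaces histones from chromatin. The double-strand breaks that follow activate the ATM kinase and a stress programme that raises genes that stop the cell cycle or start cell death. Histone genes of the large clusters are normally copied during DNA synthesis into RNAs that end in a stem-loop and carry no poly-A tail, so a poly-A library holds only their minor polyadenylated form. Metallothioneins are small cysteine-rich proteins that bind zinc and copper, and the metal-sensing factor MTF1 drives them through short metal response elements in their promoters.

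The cells carried markers of a luminal, ERBB2-positive line at both doses. ERBB2, the receptor HER2, read 1926 and 1516 CPM at 1 µM, against 3320 and 3736 CPM at 65 nM. Of 20 luminal epithelial markers, 19 passed the filter, which any 2 of the 30 libraries can meet. In each 1 µM library and in 65 nM replicate 1, 1 of the 20 had no read. Of 21 markers of stromal, endothelial and immune cells, 9 passed, 3 of them only through the 1 µM libraries, and their summed level over all 21 was 49.5 and 44.6 CPM at 1 µM, against 35.8 and 37.8 CPM at 65 nM. Of the 9, 6 rose and 2 fell, or 1 fell without 1 µM replicate 2 or after a correction of the libraries for GC content and length. Of the 6 that did not need the 1 µM libraries to pass, 3 rose and 2 fell, with a median of 0.37. A filter of 5 CPM left 1 that rose, and 12 rose with no filter. CD14, a monocyte receptor, read 5.20 and 4.95 CPM at 1 µM, against 0.547 and 0.398 CPM at 65 nM, and PTPRC, the pan-leukocyte marker CD45, read 0.916 and 1.77 CPM at 1 µM, against 0.0391 and 0.0797 CPM at 65 nM, a call that was lost without 1 µM replicate 2, without either 65 nM library and after that correction. CDH5, which marks endothelium, fell by 1.26 on the log2 scale. These levels are given as measured, and their part in other results was not tested.

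The higher dose moved most of the measured transcriptome. At 1 µM, 9419 genes (73.9% of 12743) differed from 65 nM at a Benjamini-Hochberg adjusted p under 0.05 in limma, where 4305 (33.8%) rose and 5114 (40.1%) fell. These shares over all genes are the background of each list count that follows. At least a 2-fold change was found for 1376 genes that rose (10.8%) and 1585 that fell (12.4%). All calls are on log2(CPM + 1), which understates the change of low genes. A CPM here is a share of the library's reads in genes, divided by a TMM factor. The factors were 1.067 and 1.049 at 1 µM, against 0.9723 and 0.9795 at 65 nM. A small rise or fall therefore need not be a change in share of the same direction. A rise does not necessarily mean more RNA per cell either. In bulk RNA, fewer cells of a type and less RNA per cell cannot be told apart. The 4 libraries held 19444824 and 24274780 reads in genes at 1 µM, against 26317376 and 25628369 at 65 nM, where 3 reads are worth 0.117 to 0.145 CPM. The pair at 1 µM had a Pearson correlation across genes of 0.993, the lowest of the 15 groups, against 0.997 at 65 nM.

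More genes were seen at 1 µM. At a common depth of 18443749 reads, 16916 and 16825 genes had a read at 1 µM, against 14805 and 14889 at 65 nM. In DMSO, 14305 and 14446 genes had a read. The 28 libraries other than the 1 µM parental pair spanned 14305 to 15889, so the 2 did not overlap any other library of the series. Among the genes tested, 295 passed the filter only through the 1 µM libraries and so had to be higher there.

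Set against DMSO, which shares libraries with the contrast of doses, the low dose moved fewer genes. At 65 nM, 1421 genes (11.2%) differed from DMSO, and at 1 µM, 9659 (75.8%) did. The 65 nM count depended on single libraries: it was 494 without DMSO replicate 1, 2527 without DMSO replicate 2, 240 without 65 nM replicate 2 and 1206 without 65 nM replicate 1, and it was 145 when only the 2 groups compared were fitted.

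**Figure D1:**
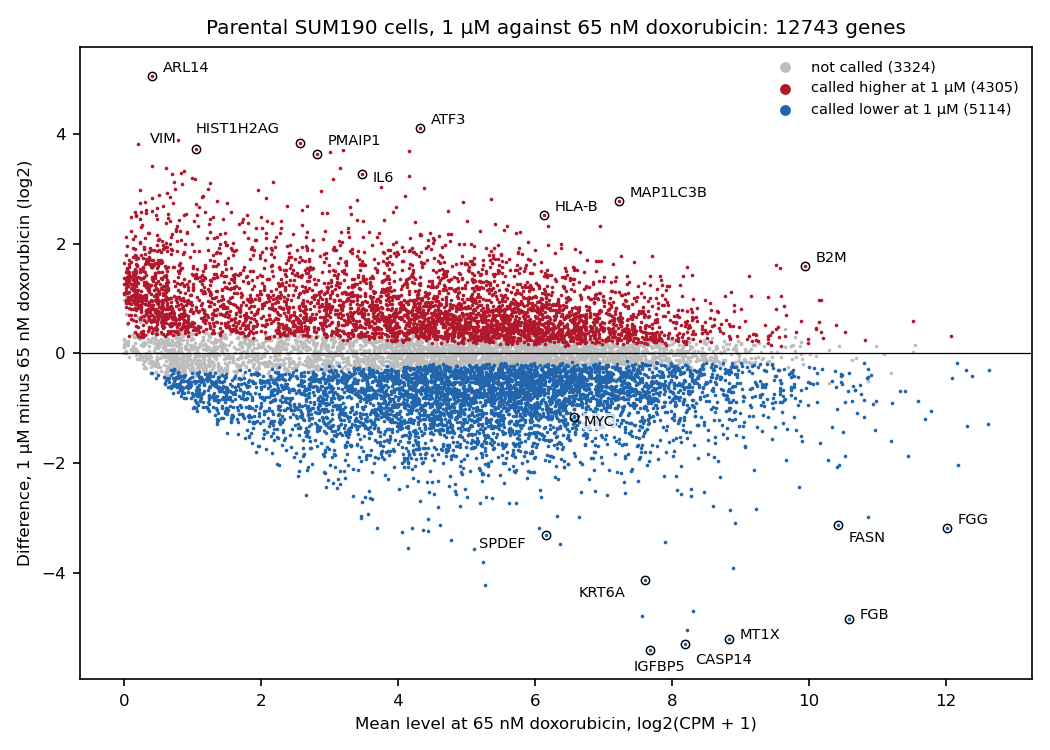
Each point is 1 of 12743 genes, by its mean log2(CPM + 1) at 65 nM (x axis) and its difference between 1 µM and 65 nM doxorubicin in log2 units (y axis). Colour separates the 4305 genes called higher, the 5114 called lower and those not called, and 18 genes of the text are named, from ARL14 at 5.05 to IGFBP5 at -5.40.

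Most of the 20 largest rises were in genes of low level at 65 nM. ARL14, a small GTPase of the ARF family, read 45.6 and 41.2 CPM at 1 µM, against 0.352 and 0.319 CPM at 65 nM, a difference of 5.05 ± 0.13 (log2, SE; adjusted p = 1.14e-19). ATF3, a stress-induced transcription factor, read 377 and 312 CPM at 1 µM, against 18.4 and 19.8 CPM at 65 nM, a difference of 4.10 ± 0.12. In DMSO, ARL14 read 0.324 and 0.0967 CPM and ATF3 15.0 and 19.9 CPM, and neither differed at 65 nM past the threshold. The 20 largest rises also held GPNMB, a lysosomal and melanosomal glycoprotein (3.88), DIO3, the deiodinase that inactivates thyroid hormone (3.81, from 2 and 6 recovered reads at 65 nM), CLU, an extracellular chaperone (3.70), FSCN1, an actin bundler (3.67), and CXCR4, the receptor of the chemokine CXCL12 (3.18). TNXB has a near-identical pseudogene, and EVI2B lies in an intron of NF1 on the opposite strand, so with the strand of counting not stated their rises of 3.38 and 3.41 are uncertain. RP11-47I22.3, PLA2G4C and SYNE1 rose by 3.32, 3.29 and 3.27.

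The largest falls were in genes that were well expressed at 65 nM. IGFBP5, which binds insulin-like growth factors, read 3.61 and 4.13 CPM at 1 µM, against 194.5 and 214.8 CPM at 65 nM, a difference of -5.40 ± 0.10 (adjusted p = 2.13e-22). NOX5, an NADPH oxidase, read 8.38 and 7.74 CPM at 1 µM, against 313 and 280.0 CPM at 65 nM, and LPCAT1, an acyltransferase of phospholipids, read 10.9 and 11.5 CPM at 1 µM, against 315 and 314 CPM at 65 nM, a difference of -4.69 ± 0.07. These genes were picked among called genes without overlap between the doses, so their separation follows from that choice. TGM2, a transglutaminase, fell by 4.78, MUC5B, a gel-forming mucin, fell by 4.22, PRODH, the first enzyme of proline breakdown, fell by 3.79, and GPR141, an orphan receptor, fell by 3.56. SLC16A7, a monocarboxylate transporter, fell by 3.46, ANGPTL4, an inhibitor of lipoprotein lipase, fell by 3.39, and SLC19A1, the reduced folate carrier, fell by 3.23. The near-identical glucuronosyltransferase genes UGT2B11 (-3.25) and UGT2B28 (-3.21) also fell, and reads may be shared between them.

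Polyadenylated transcripts of the clustered histone genes rose as a group. Of 44 in the table, 41 were tested, 38 rose, 33 of them at least 2-fold, and none fell, with a median difference of 2.0 against -0.07 over all genes tested. Of the 41, 7 passed the filter only through the 1 µM libraries; among the other 34, 31 rose and the median was 2.25. With a filter of 5 CPM, under which 10882 genes in all were tested, 25 rose. The summed level of the group was 1125 and 926 CPM at 1 µM, against 171 and 180 CPM at 65 nM. In DMSO it was 150.5 and 149.5 CPM. The promoters of HIST1H2AG and HIST2H2BE, the members with the largest rises, are shown with each CCAAT and TATAAA in capitals, on either strand, since these are the common elements of histone promoters. Each is the 250 bases before the start of the gene in RefSeq on GRCh38.p14, where these genes are called H2AC11 and H2BC21.
HIST1H2AG, chr6:27132793-27133042, plus strand: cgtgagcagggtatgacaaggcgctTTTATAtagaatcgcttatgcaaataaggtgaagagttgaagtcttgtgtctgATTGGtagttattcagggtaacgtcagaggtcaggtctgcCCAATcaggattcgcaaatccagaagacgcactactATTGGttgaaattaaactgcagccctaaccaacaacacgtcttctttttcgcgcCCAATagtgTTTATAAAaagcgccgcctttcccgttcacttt
HIST2H2BE, chr1:149886683-149886932, minus strand: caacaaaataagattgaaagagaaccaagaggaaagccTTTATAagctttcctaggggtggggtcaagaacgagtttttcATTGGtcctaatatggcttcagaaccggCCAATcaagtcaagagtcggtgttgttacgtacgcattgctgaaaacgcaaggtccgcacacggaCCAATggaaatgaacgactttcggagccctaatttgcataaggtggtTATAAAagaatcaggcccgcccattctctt
A search for CCAAT on both strands found it in 31 of 37 histone promoters matched in RefSeq (83.8%), against 33% of 27305 promoters of the same length. TATAAA, on both strands, was in 23 of the 37 (62.2%), against 11.1% of all promoters. A match describes letters and not a bound site, and matches on both strands can overlap.

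HIST1H2AG, a core histone H2A gene, read 89.1 and 78.4 CPM at 1 µM, against 5.28 and 4.66 CPM at 65 nM, a difference of 3.83 ± 0.15 (adjusted p = 5.76e-16). HIST2H2BE, an H2B gene, read 105 and 80.5 CPM at 1 µM, against 6.49 and 9.60 CPM at 65 nM, a difference of 3.38 ± 0.18. HIST1H2BK, an H2B gene that was already expressed without drug, read 263 and 208 CPM at 1 µM, against 61.7 and 64.4 CPM at 65 nM, a difference of 1.88 ± 0.09. Over all 12743 genes tested, 4821 were higher in both 1 µM libraries than in either 65 nM library, and 5666 were lower in both. All 41 histone members tested were higher in this way. They include the 7 that passed only through the 1 µM libraries. The rise took in the linker histone HIST1H1C (2.01) and the H4 genes HIST1H4E (3.19) and HIST1H4H (3.17), while HIST1H1B, HIST1H1E and HIST1H4A, at about 2 CPM or less in all 4 libraries, were not called, although they were with only the groups compared in the fit. Histone genes of one class are near-identical in sequence, so the split of reads among them is uncertain.

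Histone genes outside the clusters, which make ordinary polyadenylated RNAs, did not move as one. Of 22 variant histone and histone chaperone genes, 11 rose and 7 fell, with a median of 0.17. H3F3B, which encodes the replacement histone H3.3, read 1449 and 1519 CPM at 1 µM, against 579 and 534 CPM at 65 nM (1.41 ± 0.09), and H2AFJ, an H2A variant, rose by 1.95.

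Zinc finger genes with a ZNF symbol, most of which encode DNA-binding repressors, rose in 68.8% of cases, close to the 68.3% of RNA polymerase II and elongation genes and below antigen presentation genes (90%). Of 471 in the table, 404 were tested, 278 rose and 52 fell, with a median of 0.74, and 144 rose at least 2-fold while 6 fell as far. Leaving aside the 8 that passed only through the 1 µM libraries, 270 of 396 rose. ZNF425 read 67.6 and 56.5 CPM at 1 µM, against 8.79 and 9.003 CPM at 65 nM (2.67 ± 0.14), and ZNF350, a repressor that binds BRCA1, read 44.4 and 41.4 CPM at 1 µM, against 6.25 and 6.61 CPM at 65 nM (2.56 ± 0.12). ZNF839 went the other way, with 3.08 and 3.26 CPM at 1 µM, against 15.2 and 16.1 CPM at 65 nM. Many of these genes lie in clusters of related sequence, where reads may be shared.

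Genes of few exons rose more often, and long genes of many exons fell more often. Exon number and genomic span were taken from GENCODE v29 for 12642 of the tested genes. Among 348 genes of 1 exon the median difference was 0.46, 54% rose and 21.8% fell, and without histone cluster and ZNF genes the median of the other 294 was 0.29. Among 1759 genes of over 20 exons the median was -0.36, 20.8% rose and 55.3% fell. The classes between fell in order from 3 to 5 exons (0.20) through 6 to 10 (-0.04, or 0.03 under median-of-ratios scaling) to 11 to 20 (-0.20), and genes of 2 exons had a median of 0.15.

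Genes that span over 100 kb had a median of -0.44, and 23.3% of these 2112 genes fell at least 2-fold, while 1288 genes under 5 kb had a median of 0.15, and 7.45% fell as far. Each 1 µM library showed the same order against the mean at 65 nM, at 0.52 and 0.41 for genes of 1 exon and -0.40 and -0.31 for genes of over 20. By span, replicates 1 and 2 gave -0.52 and -0.37 for genes over 100 kb. For genes under 5 kb they gave 0.25 and 0.04, or 0.20 and 0.00 without histone cluster and ZNF genes. The rise of short genes was thus seen mainly in replicate 1. In the paclitaxel step the medians of the 1-exon and over-20-exon classes were 0.07 and -0.08, and in the step of the resistant line 0.02 and -0.07. Across genes, Spearman's rho of the difference was -0.234 with exon number, -0.215 with span (12642 genes, which share the 4 libraries) and -0.156 with transcript GC content (12680 genes). The rho with exon number was -0.144 in the paclitaxel step and -0.146 in the resistant line, and with span -0.061 and -0.177. The 2 libraries of a dose also differed along GC content, with a rho of -0.731 at 1 µM and 0.566 at 65 nM for replicate 2 minus replicate 1. The same replicate differences had a rho of 0.422 and -0.297 with span, and of 0.157 and -0.069 with exon number. At both doses the rho with span was larger in size than the -0.215 of the dose difference. Whether the trend with span exceeds the variation between replicates was not tested. After each library was corrected for transcript GC content and length, the medians were 0.42 for genes of 1 exon, -0.23 for genes of over 20 and -0.39 for genes over 100 kb.

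**Figure D2:**
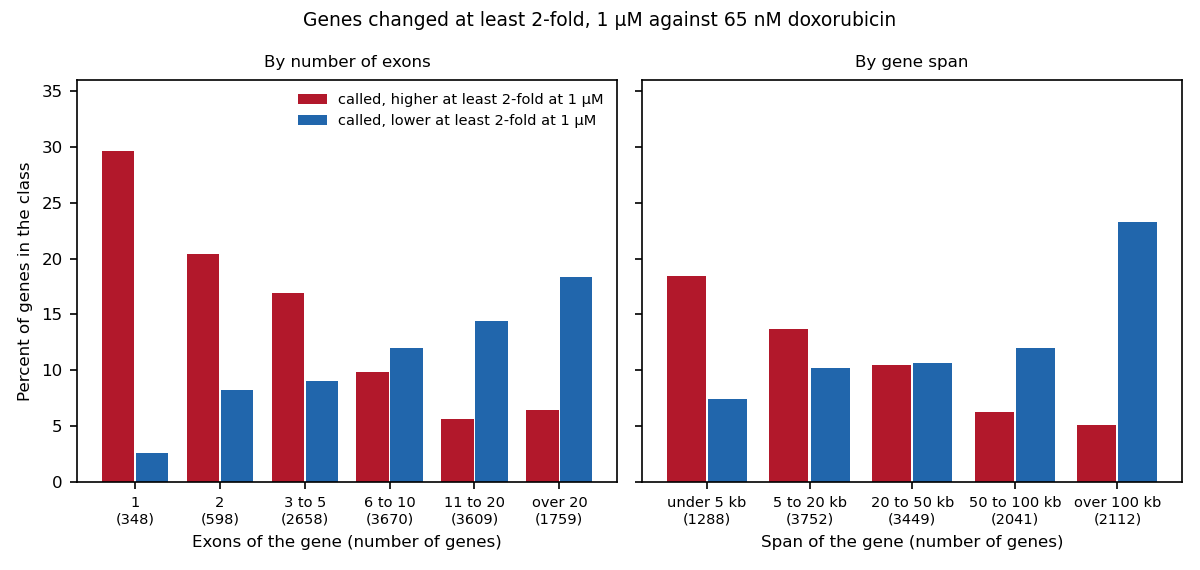
Share of genes called higher or lower by at least 2-fold at 1 µM against 65 nM doxorubicin (y axis, percent) by number of exons and by genomic span of the gene (x axes). Genes of 1 exon had 29.6% higher and 2.59% lower, and genes of over 20 exons had 6.42% higher and 18.3% lower.

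Genes of the transcription machinery rose. Of 41 RNA polymerase II and elongation genes, 28 rose and 2 fell, with a median of 0.39, and the number that fell was 4 without 1 µM replicate 1 and 6 after the GC and length correction. POLR2A, the catalytic subunit of RNA polymerase II, read 915 and 772 CPM at 1 µM, against 310.2 and 313 CPM at 65 nM, a difference of 1.43 ± 0.12 (adjusted p = 2.27e-10). In DMSO it read 195 and 252 CPM. TAF7, a TFIID subunit, rose by 1.68, POLR2K, a small subunit shared by the polymerases, by 1.69, HEXIM1, which holds the elongation kinase P-TEFb inactive, by 1.63, and CCNT1, the cyclin of P-TEFb, by 1.22. ELL2, an elongation factor, fell by 0.65.

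Of 47 splicing factors, 14 rose (29.8%) and 21 fell (44.7%), near the 33.8% and 40.1% of all genes. CLK1, a kinase that phosphorylates SR splicing factors, read 113 and 126 CPM at 1 µM, against 25.7 and 25.7 CPM at 65 nM (2.17 ± 0.12), and its relative CLK4 rose by 1.36. HNRNPD, which binds AU-rich RNA and promotes its decay, fell to 38.02 and 48.7 CPM at 1 µM, against 169 and 149 CPM at 65 nM (-1.86 ± 0.09), and the splicing factor SRSF1 fell by 1.26.

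Stress transcription factors rose more often than they fell. Of 34 immediate early and stress factors tested, 19 rose, 14 at least 2-fold, and 4 fell, with a median of 0.49. JUN, a subunit of AP-1, read 217 and 179 CPM at 1 µM, against 58.3 and 61.2 CPM at 65 nM (1.71 ± 0.09), FOSB rose by 2.86, FOS by 1.42 and MAFF, a small Maf protein, by 3.02. MYC, the growth-promoting factor, fell to 39.3 and 43.6 CPM at 1 µM, against 94.5 and 93.1 CPM at 65 nM, a difference of -1.16 ± 0.08 (adjusted p = 1.02e-11). In DMSO, MYC read 105 and 102 CPM.

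Genes of the damage-induced arrest and death programme rose more often than they fell. Of 33 of its targets and regulators tested, 18 rose and 6 fell, with a median of 0.54. PMAIP1, which encodes the BH3-only death protein NOXA, read 81.7 and 92.1 CPM at 1 µM, against 5.94 and 6.17 CPM at 65 nM (3.64 ± 0.17), and GADD45A, a growth arrest gene, read 168.5 and 167 CPM at 1 µM, against 18.7 and 21.0 CPM at 65 nM (3.02 ± 0.10).

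CDKN1A, the cell cycle inhibitor p21, rose by less, with 95.2 and 80.4 CPM at 1 µM, against 45.0 and 49.8 CPM at 65 nM (0.87 ± 0.11). MDM2, a ubiquitin ligase, fell to 48.1 and 65.1 CPM at 1 µM, against 118 and 100.5 CPM at 65 nM (-0.95 ± 0.12). SESN2 and DDB2, a stress sensor and a repair factor, rose by 1.28 and 1.32. FAS, a death receptor, fell by 0.70, and the TRAIL receptor TNFRSF10B rose by 0.66.

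In the BCL2 family, 6 of 17 members rose and 8 fell, and BH3-only death proteins were among both. Beside PMAIP1, which rose, BCL2L11 (BIM) read 74.1 and 75.9 CPM at 1 µM, against 23.8 and 23.0 CPM at 65 nM (1.64 ± 0.10), BMF rose by 1.87 and BBC3 (PUMA), at 5.49 and 5.81 CPM at 1 µM, against 1.95 and 1.91 CPM at 65 nM, by 1.18. The BH3-only genes BAD (-0.97) and BID (-0.44) fell. Among survival members, BCL2 (-0.95), BCL2A1 (-0.70), BCL2L1 (-0.60) and BCL2L2 (-0.40) fell and MCL1 rose by 0.49. Of 25 caspases and death receptors, 10 rose and 11 fell, and 9 of the 24 that did not need the 1 µM libraries to pass the filter rose. CASP14, a caspase of the skin barrier with no known role in cell death, fell furthest, to 7.95 and 5.30 CPM at 1 µM, against 302 and 279 CPM at 65 nM.

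Genes of the integrated stress response moved both ways. DDIT3, which encodes the factor CHOP, read 196 and 143 CPM at 1 µM, against 15.7 and 18.2 CPM at 65 nM, a difference of 3.23 ± 0.11 (adjusted p = 3.35e-17). PPP1R15A, which helps to end the response by dephosphorylating eIF2α, read 269 and 196 CPM at 1 µM, against 15.8 and 18.2 CPM at 65 nM (3.68 ± 0.16). ATF4, the response's main factor, was not called, at 367 and 311 CPM at 1 µM, against 309 and 315 CPM at 65 nM, a difference of 0.11, but it was called as higher without 1 µM replicate 2 (0.23), under median-of-ratios scaling (0.20) and after the GC and length correction with or without the replicate block (0.13). The ATF4 targets TRIB3 (-1.26) and CHAC1 (-0.69) fell. DDIT4, an inhibitor of mTORC1, fell to 57.8 and 53.03 CPM at 1 µM, against 318 and 305 CPM at 65 nM. Over the 36 genes of the list, 11 rose and 18 fell.

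**Figure D3:**
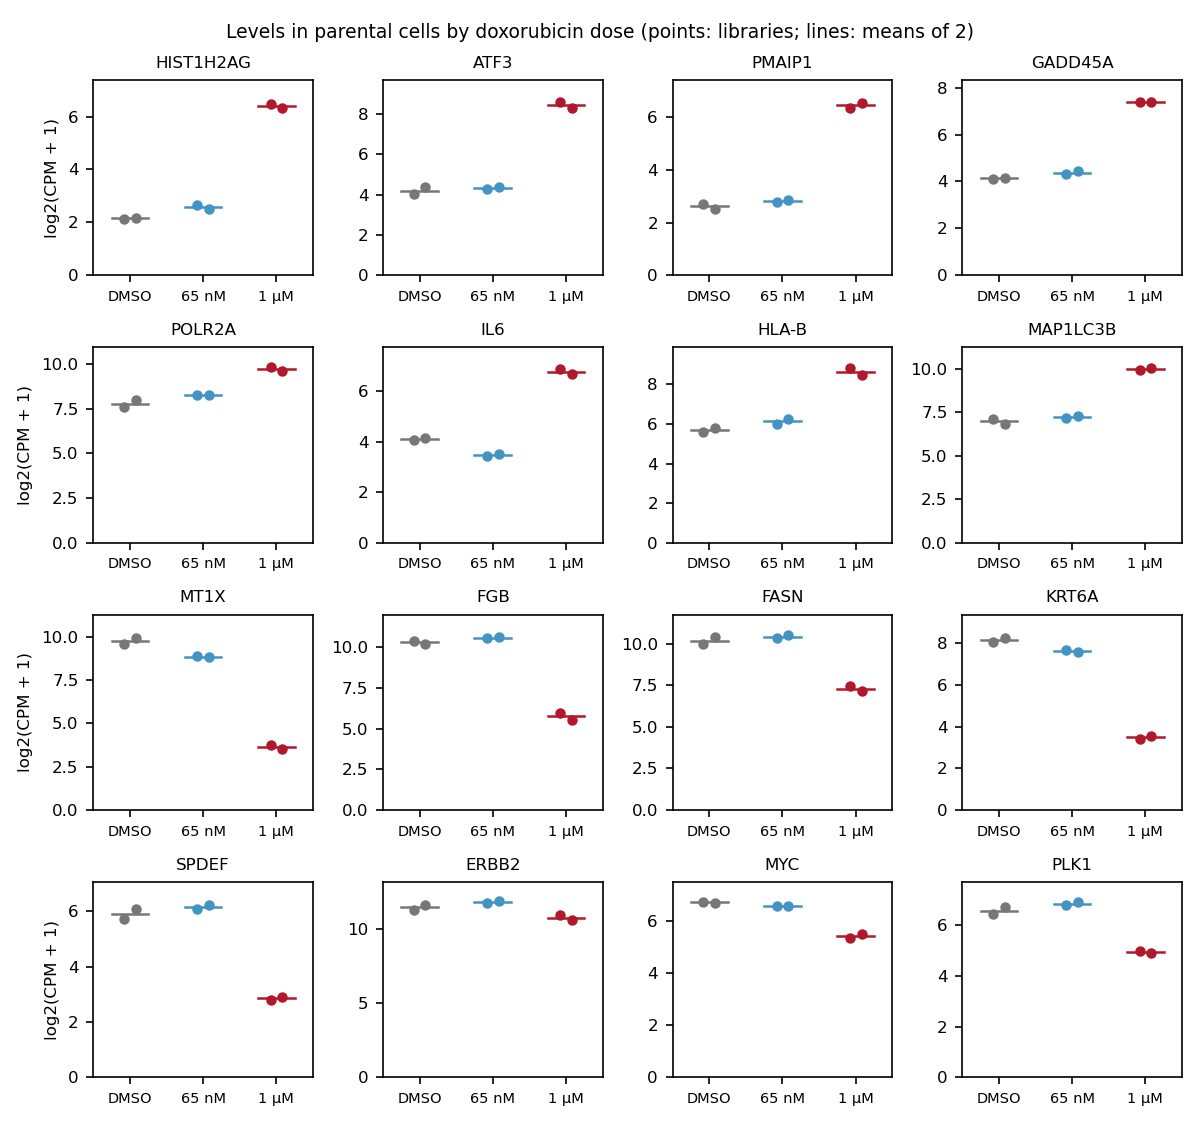
Level of 16 genes of the text as log2(CPM + 1) (y axis) in each parental library in DMSO, 65 nM and 1 µM doxorubicin (x axis, low to high), with lines through the mean of the 2 libraries. ATF3 and PMAIP1 lay near their DMSO level at 65 nM and rose at 1 µM, and MT1X, FASN and KRT6A were lowest at 1 µM.

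Mitotic genes fell at close to the rate of all genes but seldom rose, and replication genes rose and fell in equal number. Of 46 G2/M and mitosis genes, 5 rose (8 under median-of-ratios scaling) and 21 fell, with a median of -0.22. PLK1, a mitotic kinase, read 30.1 and 28.5 CPM at 1 µM, against 107 and 117 CPM at 65 nM (-1.90 ± 0.10), CDC20, an activator of the anaphase-promoting complex, fell by 1.04 and CCNB1, the mitotic cyclin, fell by 0.87. Of 45 DNA replication and nucleotide synthesis genes, 15 rose and 15 fell. LIG1, the replicative ligase, fell by 1.37.

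At the entry to S phase, 7 of 27 genes rose, or 11 without 1 µM replicate 1, and 10 fell. CDKN2B, the CDK4 and CDK6 inhibitor p15, read 242 and 266 CPM at 1 µM, against 51.7 and 56.2 CPM at 65 nM (2.21 ± 0.09), and SKP2, which targets p27 for destruction, fell by 1.31. Among 44 double-strand break repair and Fanconi genes, 9 rose and 22 fell. The checkpoint kinase gene CHEK2 fell to 8.58 and 10.1 CPM at 1 µM, against 26.0 and 28.6 CPM at 65 nM, and NBN, a subunit of the break-sensing MRN complex, fell by 1.21.

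Both topoisomerase II genes, which encode the targets of the drug, fell. TOP2A, the topoisomerase II of dividing cells, read 167 and 249.5 CPM at 1 µM, against 323 and 301 CPM at 65 nM, a difference of -0.61 ± 0.12 (adjusted p = 0.000126), and the 1 µM libraries differed from each other more than the 65 nM libraries did. TOP2B, its form in all cells, fell by 0.83, and TOP1MT, of mitochondria, fell by 1.78, while TOP1 rose by 0.41. AKR1C1, an aldo-keto reductase that can reduce doxorubicin, fell to 54.7 and 57.8 CPM at 1 µM, against 480.0 and 490.4 CPM at 65 nM (-3.09 ± 0.08), and the near-identical AKR1C2 fell by 2.03, with reads that may be shared. NOS3, a nitric oxide synthase, rose by 2.19.

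Efflux transporters were mostly lower, with 2 of 12 tested genes higher and 8 lower, and a median of -0.73. The 2 became 1 without 1 µM replicate 2, without 65 nM replicate 1 and with a filter of 5 CPM. ABCC5 rose by 0.52, and ABCG2, at a mean log2(CPM + 1) of only 0.932 at 65 nM, by 0.50. ABCC1 (MRP1), which exports anthracyclines, read 41.6 and 40.3 CPM at 1 µM, against 83.6 and 84.8 CPM at 65 nM (-1.02 ± 0.09), and ABCA3, a lipid transporter of lysosome-like organelles, fell by 2.16. ABCB1 (P-glycoprotein), the best known exporter of doxorubicin, missed the filter, with 0.964 and 0.982 CPM at 1 µM, and no read and 0.120 CPM at 65 nM.

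**Figure D4:**
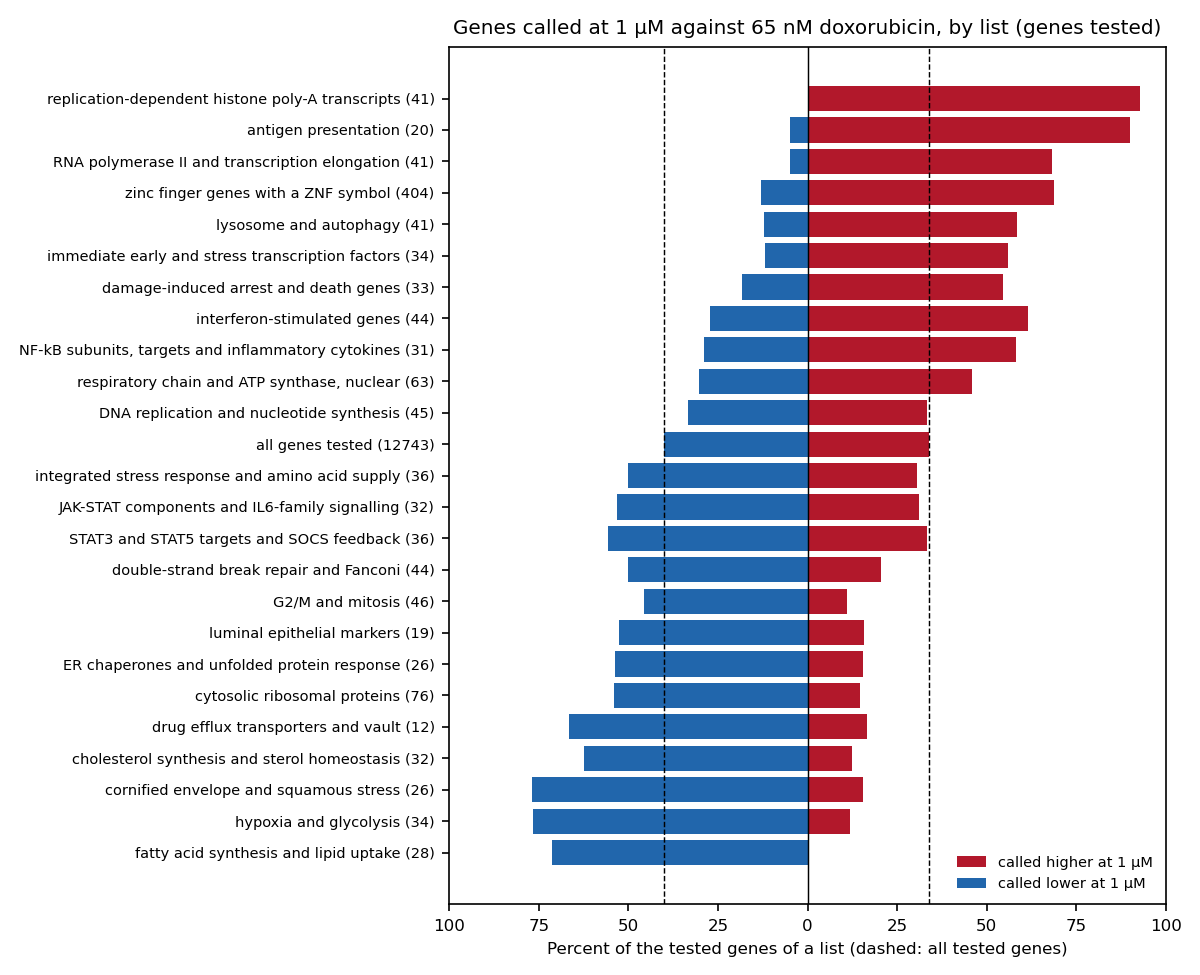
Percent of tested members called higher or lower at 1 µM against 65 nM doxorubicin (x axis) for 24 gene lists and for all genes tested (y axis). Dashed lines mark the shares over all genes, 33.8% higher and 40.1% lower.

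Antigen presentation genes rose nearly throughout. Of 27 in the table, 20 were tested, 18 rose and 1 fell, with a median of 1.04, and their summed level was 6706 and 6270 CPM at 1 µM, against 3254 and 3395 CPM at 65 nM. HLA-B, a class I heavy chain, read 448 and 353 CPM at 1 µM, against 62.8 and 75.9 CPM at 65 nM, a difference of 2.51 ± 0.14 (adjusted p = 1.13e-13). B2M, the light chain of class I, read 2974 and 2971 CPM at 1 µM, against 974 and 999 CPM at 65 nM (1.59 ± 0.10). HLA-E rose by 2.31, HLA-C by 1.5 and TAP1, a peptide transporter, by 1.44, and reads may be shared among HLA genes. CALR, an ER chaperone of class I assembly, was the member that fell, by 1.02.

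Interferon-stimulated genes rose more often than they fell, 27 against 12 of 44, with a median of 0.56. IFI6 read 88.2 and 58.7 CPM at 1 µM, against 9.03 and 10.1 CPM at 65 nM. In DMSO this gene, which encodes a mitochondrial inhibitor of cell death, read 3.20 and 3.58 CPM. ISG15, a ubiquitin-like modifier, rose by 1.79 and DDX58, the RNA sensor RIG-I, by 1.67. OAS1, an RNA-activated enzyme of antiviral defence, ran against them, with a mean of 4.18 ± 0.0199 CPM at 1 µM, against 19.5 ± 0.682 CPM at 65 nM (SD, n = 2 each), a difference of -1.99 ± 0.10. Of 17 genes of cytosolic DNA and RNA sensing, 9 rose and 4 fell, and without the 1 that passed only through the 1 µM libraries 8 of 16 rose, with a median of 0.17. Those that rose held the DNA sensor IFI16 higher by 1.38 and TMEM173, the adaptor STING, by 0.97.

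IL6 was one of the 20 largest rises. This cytokine gene read 114 and 99.6 CPM at 1 µM, against 9.85 and 10.4 CPM at 65 nM, a difference of 3.27 ± 0.14 (adjusted p = 1.49e-15), and in DMSO it read 15.5 and 16.5 CPM. Among its receptor chains, IL6ST (gp130) rose to 506 and 632 CPM at 1 µM, against 259 and 226 CPM at 65 nM, and IL6R rose by 0.79, while OSMR, the oncostatin M receptor, fell by 1.66. Downstream, JAK2 (-0.78) and STAT5B (-1.4) fell and the feedback inhibitor SOCS1 rose by 1.2. Of 32 JAK-STAT and IL6-family genes, 10 rose and 17 fell.

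Known STAT3 and STAT5 targets were mostly lower, 20 of 36 against 12 that rose, with a median of -0.40. FGB, the fibrinogen β chain and an acute-phase gene that IL6 raises in liver, fell to 61.6 and 45.4 CPM at 1 µM, against 1475 and 1590 CPM at 65 nM, a difference of -4.83 ± 0.12 (adjusted p = 6.78e-20). FGG, the γ chain, fell by 3.18, and ORM1, another acute-phase gene, fell to 0.626 and 0.432 CPM at 1 µM, against 16.1 and 17.2 CPM at 65 nM, a difference of -3.53. Of 31 NF-κB subunits, targets and cytokines, 18 rose and 9 fell. TNFAIP3, a brake on NF-κB, rose by 1.54, RELB, a subunit, by 1.35 and the chemokine IL8 by 1.09, while NFKBIA, which encodes IκBα, fell by 0.45 and PTGS2 (COX-2) fell by 1.65.

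Metallothioneins fell steeply. Of 14 metallothionein and zinc genes in the table, 7 were tested, 2 rose and 5 fell. MT1X and MT2A carried the largest falls, and the 250 bases before each start are shown, from RefSeq on GRCh38.p14, with the cores of metal response elements in capitals. The letters searched on both strands were TGCACNC and TGCGCNC, where N is any base.
MT1X, chr16:56682220-56682469, plus strand: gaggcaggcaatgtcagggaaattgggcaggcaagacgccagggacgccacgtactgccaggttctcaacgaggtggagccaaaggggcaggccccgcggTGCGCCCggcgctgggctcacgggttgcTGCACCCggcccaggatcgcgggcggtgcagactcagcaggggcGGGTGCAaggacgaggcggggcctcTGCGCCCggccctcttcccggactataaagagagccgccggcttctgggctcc
MT2A, chr16:56608334-56608583, plus strand: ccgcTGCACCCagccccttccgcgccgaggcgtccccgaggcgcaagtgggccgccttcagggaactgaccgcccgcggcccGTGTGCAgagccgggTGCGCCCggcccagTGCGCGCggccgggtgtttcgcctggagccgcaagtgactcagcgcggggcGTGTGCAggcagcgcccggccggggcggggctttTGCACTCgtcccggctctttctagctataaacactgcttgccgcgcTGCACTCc
MT1X holds 4 such matches and MT2A 7, against a mean of 0.33 in all 27305 promoters, of which 24.7% held at least 1.

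MT1X read 12.7 and 10.4 CPM at 1 µM, against 464 and 448 CPM at 65 nM, a difference of -5.19 ± 0.11 (adjusted p = 5.74e-21). MT2A read 32.4 and 29.2 CPM at 1 µM, against 484 and 464 CPM at 65 nM (-3.90 ± 0.11). In DMSO, MT1X read 762 and 965 CPM and MT2A 721 and 960.2 CPM, and both genes were already lower at 65 nM than in DMSO, with log2 differences of -0.91 for MT1X (adjusted p = 1.68e-05) and -0.81 for MT2A (adjusted p = 6.38e-05). MT1F fell by 1.17. The zinc exporter SLC30A1, also a target of MTF1, rose by 1.17 and MTF1 by 0.48. Metallothionein genes are near-identical in sequence, and the split of reads between them is uncertain.

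Genes of fatty acid and sterol synthesis were lower. Of 28 fatty acid synthesis and lipid uptake genes, 20 fell, 10 at least 2-fold, and none rose, or 1 under median-of-ratios scaling, with no filter or after the GC and length correction. FASN, the fatty acid synthase, read 172 and 142 CPM at 1 µM, against 1291 and 1455 CPM at 65 nM, a difference of -3.12 ± 0.15 (adjusted p = 9.21e-15). SCD, which makes monounsaturated fatty acids, fell by 2.98, FADS2, a desaturase of polyunsaturated fatty acids, fell by 3.44, and ACACA, the enzyme before FASN, fell by 2.35. SREBF1, the factor that drives these genes, fell by 1.67.

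Of 32 cholesterol genes, 20 fell and 4 rose, with a median of -0.88. LSS, which closes the sterol ring, fell to 10.8 and 9.39 CPM at 1 µM, against 60.5 and 74.7 CPM at 65 nM, SQLE fell by 2.12, and INSIG1, which holds the sterol factors back in the ER, fell by 2.0. Of the genes that rose, MYLIP, a ubiquitin ligase, rose by 2.18 and NPC1, which exports cholesterol from lysosomes, by 0.74. Hypoxia and glycolysis genes moved the same way, with 26 of 34 lower and 4 higher, or 2 higher without either replicate 1 or with only the groups compared. HK2, a hexokinase, fell by 1.66, LDHA, which makes lactate, read 708 and 823 CPM at 1 µM, against 2018 and 1984 CPM at 65 nM, and SLC16A3, the lactate exporter, fell by 2.07. ADM, the peptide hormone adrenomedullin, rose by 1.83.

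Luminal markers fell more often than they rose. Of 19 tested, 10 fell and 3 rose, and their summed level was 10496 and 9355 CPM at 1 µM, against 17436 and 18254 CPM at 65 nM. SPDEF, a luminal transcription factor, read 5.98 and 6.44 CPM at 1 µM, against 66.6 and 74.3 CPM at 65 nM, a difference of -3.31 ± 0.14 (adjusted p = 1.28e-15). MUC1, an apical mucin, fell by 2.85, KRT19 fell by 2.06, XBP1, a factor of secretory cells, fell by 1.95, and FOXA1, a pioneer factor of luminal chromatin, fell by 1.39. The markers that rose were KRT8 (0.57), CDH1, the epithelial cadherin (0.36), and EPCAM (0.22), whose call was lost without 1 µM replicate 2, without either 65 nM library, with fewer groups in the fit (0.22) and after the GC and length correction (0.02).

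Genes of the cornified envelope and squamous stress also fell, 20 of 26, with 4 higher and a median of -0.76. KRT6A, a keratin of stressed epithelium, read 9.64 and 10.8 CPM at 1 µM, against 200.3 and 189 CPM at 65 nM (-4.12 ± 0.15), and SPRR1B, an envelope protein, fell by 3.12. KRT6A may share reads with its near-identical copies. Of 11 basal and myoepithelial markers tested, 3 rose and 5 fell. Without the 1 that passed only through the 1 µM libraries, 2 of 10 rose and 5 fell, with a median of -0.38, and a filter of 5 CPM left 1 that rose.

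VIM, the intermediate filament of mesenchymal cells, was among the largest rises, with 27.2 and 25.1 CPM at 1 µM, against 1.33 and 0.837 CPM at 65 nM, a difference of 3.71 ± 0.28 (adjusted p = 3.26e-11). The 33 mesenchymal and matrix genes as a group were near the background, with 11 higher (33.3%) and 13 lower (39.4%). Over all genes the shares were 33.8% and 40.1%. SNAI1, a repressor of CDH1, rose by 1.75 and CTGF, a matricellular protein, by 1.91, while THBS1 read 1361 and 1520.0 CPM at 1 µM, against 3430.0 and 3190.0 CPM at 65 nM, and fibronectin (FN1) fell by 1.09.

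Among ERBB receptors and their ligands, 4 of 18 rose and 9 fell. The 4 receptor genes fell, ERBB2 (-1.04 ± 0.11), ERBB3 (-1.25), ERBB4 (-2.02) and EGFR (-0.80). In DMSO, ERBB2 read 2469 and 3140.0 CPM. The ligand genes HBEGF and TGFA rose, by 2.41 and 1.13, and HBEGF read 182 and 159 CPM at 1 µM, against 31.2 and 31.3 CPM at 65 nM.

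Lysosome and autophagy genes rose in 24 of 41 cases and fell in 5, or in 10 after the GC and length correction. MAP1LC3B, the LC3 protein that coats autophagosomes, read 983 and 1057 CPM at 1 µM, against 145 and 153 CPM at 65 nM, a difference of 2.77 ± 0.10 (adjusted p = 8.24e-17). ATG12, which helps to attach LC3 to membranes, rose by 1.83, CTSB, a lysosomal protease, by 1.34, and SQSTM1, an autophagy receptor, by 1.04.

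Genes of protein folding were mainly lower. Of 30 heat shock genes, 16 fell and 9 rose, with HSPA8 (-1.15) and DNAJB1 (-1.63) lower and HSPB8, a small heat shock protein of selective autophagy, higher by 2.87, at 141 and 111 CPM at 1 µM, against 15.6 and 16.9 CPM at 65 nM. Of 26 ER chaperone and unfolded protein response genes, 14 fell and 4 rose. PDIA4, an ER folding enzyme, fell by 1.82, while the stress sensor ERN1 (IRE1α) and DNAJB9, which restrains it, rose by 1.32 and 1.49. Of 27 NRF2 targets and glutathione genes, 8 rose, or 5 without either replicate 1, and 13 fell, and HMOX1, the haem oxygenase, fell by 0.93.

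Among ribosomal protein genes, 41 of 76 fell and 11 rose, none by 2-fold, with a median of -0.30. The number that rose was 4 without 1 µM replicate 1 and after the GC and length correction, 5 without 65 nM replicate 1 and with only the groups compared, and 18 without 1 µM replicate 2 and under median-of-ratios scaling. RPS16 fell furthest, by 0.95. Of 50 ribosome biogenesis genes, 14 rose and 22 fell, and POLR1B, a subunit of RNA polymerase I, fell by 1.05. Nuclear genes of the respiratory chain went 29 up and 19 down of 63, with ATP5D lower (-1.85), and 13 of 38 proteasome genes rose while 10 fell, or 19 after the GC and length correction. Of the 13 genes encoded in mitochondria, MT-ND3 was the 1 called, at 167 and 89.6 CPM at 1 µM, against 165 and 278 CPM at 65 nM, and its values overlapped between doses. This call was lost without 1 µM replicate 2 (-0.36), without 65 nM replicate 2 (-0.43) and under median-of-ratios scaling (-0.72). The number of the 13 that fell was 5 after the GC and length correction, 7 with the replicate block added to it, and 4 with only the groups compared, where 1 rose. Of 27 tubulin and microtubule genes, 11 rose (40.7%) and 14 fell (51.9%), where TUBB fell by 1.62 and the neuronal form TUBB3 rose by 1.68.

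The step between doxorubicin doses in parental cells differed from both other steps for 5691 genes (44.7% of 12743). The difference between the doxorubicin step (1 µM minus 65 nM) and the paclitaxel step (10 nM minus 2.5 nM) was called for 7061 genes (55.4% of 12743), of which 3145 (24.7%) were above 0 and 3916 (30.7%) below. The difference from the step in doxorubicin-resistant cells (1 µM minus 350 nM) was called for 7345 genes (57.6%), 3262 (25.6%) above 0 and 4083 (32%) below. The low doses and their ratios to the high doses differ between the 3 steps, so these tests compare the steps as given and not drugs or lines at matched dose.

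Clustered histone transcripts rose further than in either other step. In parental cells their summed level was 150.5 and 149.5 CPM in DMSO and 212.1 and 328.5 CPM at the low paclitaxel dose. At the high paclitaxel dose it was 381.9 and 319.9 CPM. The paclitaxel step thus leaves out the higher level already seen at the low dose, whose difference from DMSO was not tested. The doxorubicin step was above the paclitaxel step for 36 of 41 histone transcripts and above the step of the resistant line for 36, and none was below in either test. Over the 34 that did not need the parental 1 µM libraries to pass the filter, the counts were 29 and 29. HIST1H2AG had a step of 3.83 in parental cells given doxorubicin, 0.24 in paclitaxel and 0.54 in the resistant line, with differences of 3.59 (adjusted p = 9.77e-12) and 3.29 (adjusted p = 2.92e-11). ZNF genes were above the paclitaxel step in 214 of 404 cases and above the resistant line's step in 252, against 40 and 33 below, and over the 396 that passed without the 1 µM libraries the counts above were 206 and 244. For fatty acid genes the difference from paclitaxel was below 0 for 18 of 28 and from the resistant line for 21, with none above in either.

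The genes that differed most from the paclitaxel step were, above it, HIST1H2AG, DIO3, VIM (3.38), RP11-47I22.3, ARL14 (3.27), EVI2B, IL6 (2.99) and HIST1H3H (2.96), and below it MT1X (-4.36), KRT6A (-3.93), IGFBP5, LPCAT1, TGM2, NOX5, CASP14 and MT2A (-3.47). IL6 had a step of 0.28 in paclitaxel and 0.52 in the resistant line. KRT6A had steps of -0.20 and -0.77 there. Antigen presentation genes were above the paclitaxel step in 17 of 20 cases and below in 1, and HLA-B had a step of -0.05 in paclitaxel and 1.04 in the resistant line.

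For some genes the difference between steps was not called. IL8 rose by 1.09 in the doxorubicin step and had a step of 1.17 in paclitaxel, a difference of -0.09 ± 0.25 (adjusted p = 0.794), which passed the threshold after the GC and length correction (-0.31). TOP2A had a step of -0.61 in both, a difference of 0.00 ± 0.18. CDKN1A had a step of 0.78 in the resistant line, and the difference from parental cells was 0.09 ± 0.15 (adjusted p = 0.624), which passed after that correction too (0.20). MUC5B had a step of -3.52 in the resistant line, a difference of -0.70 ± 0.43 (adjusted p = 0.174), and -1.24 with a pseudocount of 0.25 CPM, past the threshold. For replication genes, the parental step (1 µM minus 65 nM) was above that of the resistant line (1 µM minus 350 nM) for 6 of 45 and below for 22, while against paclitaxel it was above for 24 and below for 9.

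**Figure D5:**
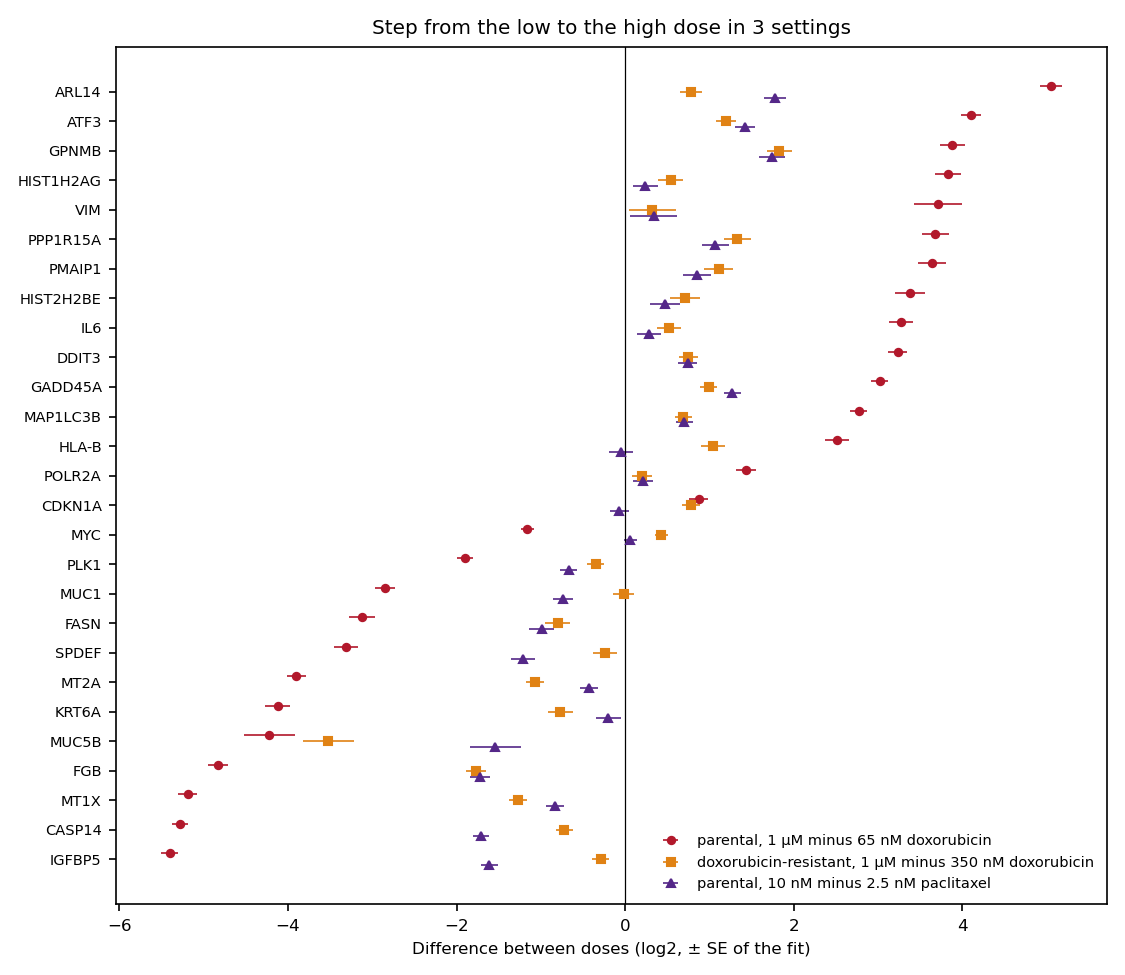
Difference between the high and the low dose in log2 units with its standard error (x axis) for 27 genes of the text (y axis) in parental cells given doxorubicin (1 µM minus 65 nM), doxorubicin-resistant cells (1 µM minus 350 nM) and parental cells given paclitaxel (10 nM minus 2.5 nM). HIST1H2AG lies at 3.83 in the first of these, against 0.54 and 0.24 in the others, and MUC5B lies at -4.22 and -3.52 in the 2 doxorubicin steps.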

How the data were processed

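The deposited table held log2(CPM + 1) values of 20114 genes in 30 libraries, where the authors' CPM was relative to a library's reads in genes, scaled by TMM factors. Per the submitters' processing notes, STAR 2.5.1b, edgeR and GRCh37 (hg19) were used; the read counter and the annotation were not given in the sources used here, nor was the strand of counting. Per the labels, libraries were made from polyadenylated RNA with a Kapa mRNA kit. Whole reads were recovered from all values (tolerance 0.01), and a library held 18443749 to 32669995 of them in genes. The value of 3 reads is a floor that covers counting error only.

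The limma package (3.58.1, under R 4.3.3) compared groups on the deposited log2 scale, in a model with 1 mean for each of the 15 groups, for 12743 genes at 1 CPM or more in 2 or more libraries, trended and robust variances and 15 residual degrees of freedom. The groups thus share 1 estimate of spread. Groups that enter only this spread were parental cells in ruxolitinib with or without paclitaxel, and doxorubicin-resistant cells in DMSO. A paclitaxel-resistant line in DMSO, paclitaxel, ruxolitinib or both drugs also entered only there. The SD across genes of the replicate difference was largest in the 1 µM parental pair (0.2751), against 0.1239 in paclitaxel-resistant cells in DMSO. The shared spread may thus understate that of the 1 µM pair. Tests were two-sided, with Benjamini-Hochberg adjustment over all genes tested and a threshold of 0.05. The difference between 2 steps was tested as a contrast of 4 groups. Genes named outside the lists were the 20 largest called changes each way with a mean of 5 CPM or more in 1 dose and no overlap, and the 8 largest each way for the differences between steps. The 42 lists, with 1650 tested genes, and the genes to name were chosen with earlier results of these data known. The values of a few list members are not reported here. Tables and figures were made with Python 3.11.15, pandas 2.3.3 and matplotlib 3.10.9. The test was tried on simulated data with known changes. These had few changed genes, the same dispersion for all genes and no trend with GC content. The trial therefore does not bear on the calls in these data.

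Alternatives were another pseudocount (0.25 CPM), no filter and a filter of 5 CPM, median-of-ratios scaling, a replicate block, fewer groups in the fit, voom on recovered reads, adjusting libraries for the GC content and length of transcripts, and leaving out each library in turn. Exon number, span and GC content came from GENCODE v29 and promoters from RefSeq, both on GRCh38 and not on the authors' build.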

Additional observations from a re-analysis of the deposited data

Results flagged for a closer look

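The step from the low to the high doxorubicin dose differed between parental and doxorubicin-resistant cells for 7345 genes (limma, adjusted p under 0.05), in a direct test of the difference between lines. The low dose was 65 nM in parental and 350 nM in resistant cells, so line and dose range cannot be told apart. Among genes of at least 5 CPM in 1 of the 4 groups, the parental step exceeded the resistant one most for ARL14 (4.27 in log2 units), VIM (3.40), HIST1H2AG (3.29), DIO3 (3.24), RP11-47I22.3 (3.15), FSCN1 (3.09), SYNE1 (3.09) and TNXB (2.98). It lay furthest below for IGFBP5 (-5.12), CASP14 (-4.55), TGM2 (-4.27), MT1X (-3.92), NOX5 (-3.65), ORM1 (-3.60), LPCAT1 (-3.49) and SPRR1B (-3.49). For DIO3 the difference was 2.03 and not called with voom on recovered reads, and reads of TNXB and HIST1H2AG may be shared with near-identical copies. ORM1 and SPRR1B had steps of 0.07 and 0.37 in resistant cells, and IGFBP5 of -0.29. With 2 libraries a group, single outlying libraries were not looked for.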

How the results depend on the processing

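The count of genes that differed between 1 µM and 65 nM was 9419 of 12743 tested. It ranged from 8231 of 10882 tested (filter of 5 CPM) to 11695 of 18755 tested (no filter), so these counts have unlike bases. Leaving out 1 library gave 8607 to 8986. Leaving out 1 library gave 6358 to 7104 genes for the difference from the paclitaxel step, 6659 to 7305 for that from the resistant line and 9082 to 9291 for 1 µM against DMSO. The 65 nM against DMSO count of 1421 did not hold its size: it was 2960 after the GC and length correction, 2926 with the replicate block added to it, 145 with only the groups compared, 461 with parental libraries only, and 240 to 2527 with 1 library left out. The cause was not tested.

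The replicate differences of the 2 doses were related with opposite sign, at a correlation across genes of -0.491. Equal replicate numbers thus did not mark matched libraries. The replicate block gave 9389 genes. With the numbers of the 1 µM pair crossed, an alternative chosen after seeing the data, 9453 were called. Under median-of-ratios scaling, which moved the median of all genes to -0.00107 from -0.073, the median of genes of 6 to 10 exons turned to 0.03 and that of genes spanning 20 to 50 kb to 0.05. Of 221 values of named genes, none turned direction with a call on either side, and those that crossed the threshold in any alternative were 11. Of 84 counts of list members, 16 moved by over 1.5 times in some alternative. What limits the calls, depth or the 2 libraries a group, was not tested, and in libraries of 18443749 reads or more genes below 1 CPM rest on few reads.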
